A study of Mus musculus with 10 samples.

Results

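The comparison set brown against white adipose tissue of mice that had received saline, and it used 4 of the 10 arrays in the study: 2 of brown fat and 2 of white fat. The arrays were picked by their titles, though with earlier results of these data known. Per the labels all mice were wild type, ate chow and were injected intraperitoneally each day for 7 days. The sources used here do not give the age, sex or strain of the mice or the depot of the white fat. The titles call the arrays of a tissue biological replicates, but do not say whether each array held the RNA of 1 mouse, so the p-values below measure the spread between these arrays. The remaining arrays held white fat after an agonist of the β3-adrenergic receptor, called CL in the titles (1 mg/kg, 2 arrays), and cultured brown adipocytes differentiated for 0, 3, 5 or 7 days (1 array each). They enter below as levels, without a test.

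Brown fat burns fuel to make heat: its adipocytes hold many small lipid droplets and dense mitochondria, and the uncoupling protein Ucp1 lets the proton gradient of these mitochondria run down as heat. White fat stores energy as triglyceride in large droplets and secretes hormones such as leptin. Long non-coding RNAs are transcripts without a long open reading frame, and those of the intergenic kind (lincRNAs) are often made in few tissues. Bulk fat also holds vessels, immune cells and nerve endings, so that a lower signal from fewer cells of a type and from less RNA per cell cannot be told apart.

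The defining genes of the tissues could not be checked. The array carries most coding transcripts under design numbers without a gene name, and 0 of 9 listed brown fat markers (among them Ucp1, Cidea and Prdm16), 0 of 6 white fat markers (among them Lep and Retn) and 0 of 5 general adipocyte markers (among them Adipoq and Pparg) were measured under their names. Of the markers of lymphoid tissue, macrophages, endothelium, muscle, nerve and mesothelium, Ccl21b and Ccl21c alone were measured by name. A gene symbol could be attached to 116 of the 123 probes with a RefSeq accession, and 112 of the 116 were tested. No probe sequences were given in the sources used here.

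Signal strength differed between the arrays. The share of probes that the scanner software marked as well above background was 55.2% and 67.8% on the brown fat arrays and 74.0% and 77.3% on the white fat arrays, and the mark was also on 13.8%, 23.8%, 26.0% and 29.1% of negative control spots. The scanner headers number the slide positions of these arrays 1, 2, 3 and 4, in that order. A difference between tissues cannot be told apart from one between slide positions. Replicates correlated at r = 0.980 in brown fat and 0.983 in white fat over the 43361 probes tested, and arrays of different tissues at 0.901 to 0.936. In brown fat 8.84% of these probes lay 2-fold or more apart between replicates, in white fat 4.36%, while the means of the tissues lay that far apart for 33.5%. No spot was saturated, and with 2 arrays per tissue the precision of each value is limited.

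Levels are given throughout on a log2 scale on which 0 is the brightness at the 75th percentile of the array's probes. They compare the same probe between arrays and say nothing about one probe against another. A difference is the brown fat mean minus the white fat mean, and a probe was called at a limma adjusted p under 0.05. Of the probes tested, 14248 were called, which is 32.9%: 6175 (14.2%) were higher and 8073 (18.6%) lower in brown fat. The smallest called difference was 0.79 in size, and 12671 of the calls reached 2-fold. At least 16-fold differences were called for 106 probes higher and 182 lower in brown fat.

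The counts changed when 1 array was left out, which leaves 1 residual degree of freedom. With white fat replicate 1 left out, no probe was called by limma (the smallest adjusted p was 0.0745, and 14364 probes had an unadjusted p under 0.05), and with white fat replicate 2 left out 547 were. In the fits without brown fat replicate 1 or 2 limma used the same variance for all probes (infinite prior degrees of freedom, against 2.77 without a white fat array). Their counts therefore cannot be set beside those without a white fat array. Each call described below is lost without white fat replicate 1, although no named call changed direction when any 1 array was left out. The balance of directions also moved with the processing. Calls were 43.3% higher in brown fat as first scaled, 54.0% (7933 higher and 6761 lower) with normexp background correction, which put the median difference of all probes at 0.10 in place of -0.12, and 57.0% (7361 and 5561) among probes well above background on all 4 arrays. In the authors' deposited value table, which lists no probe of the coding block, 63.1% of calls were higher.

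**Figure D1:**
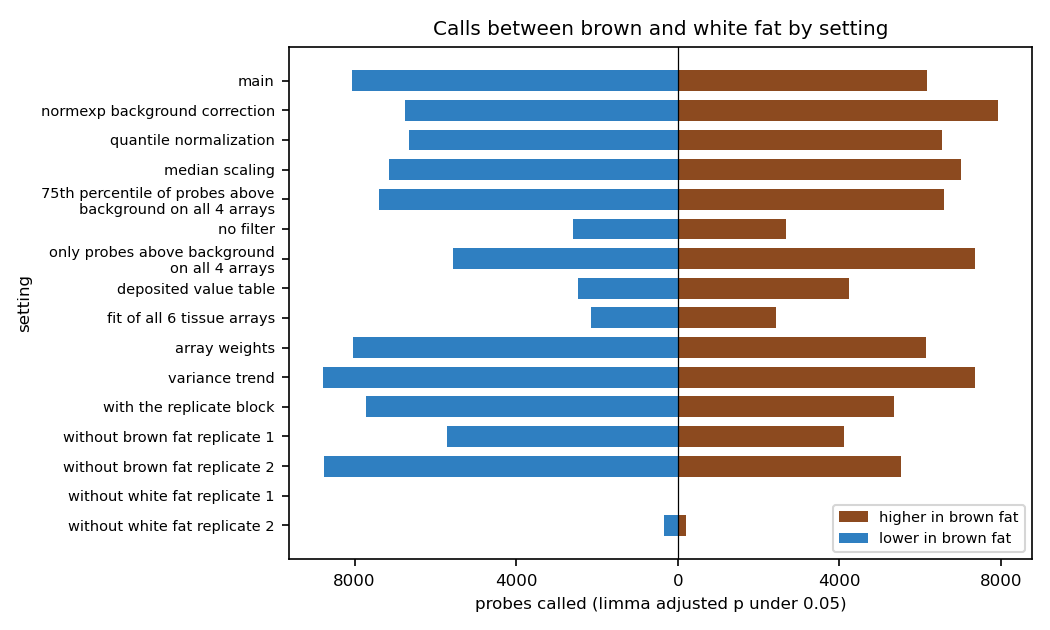
Number of probes called (limma adjusted p under 0.05, horizontal axis) higher in brown fat, to the right, and lower, to the left, under the first processing and 15 alternatives (vertical axis). The bar for the setting without white fat replicate 1 is empty, and that without white fat replicate 2 holds 203 probes higher and 344 lower.

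Among genes measured by name, the enzyme of glycerol reuse stood higher in brown fat. Gk, glycerol kinase (NM_008194), makes glycerol 3-phosphate from glycerol and so lets a fat cell rebuild triglyceride from the products of its own lipolysis. Its level was 0.59 and 0.79 on the brown fat arrays and -1.80 and -1.67 on the white fat arrays. The tissues did not overlap, and Gk was 5.37-fold higher in brown fat (log2 difference 2.43, SE 0.24, limma adjusted p = 0.0044). Over the other scalings, filters and fits its log2 difference ran from 1.80 to 2.51 with adjusted p-values up to 0.0322. Without white fat replicate 1 or 2 the call was lost (limma adjusted p up to 0.075).

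Gapdh, the glycolytic enzyme often taken as a reference gene, was also higher. Its level was 9.90 and 9.54 in brown fat against 8.62 and 8.65 in white fat, a difference of 1.09 (SE 0.26, limma adjusted p = 0.0252). The call was lost with quantile normalization, where the difference was 0.59, with no filter, in the fit of all 6 tissue arrays and in 3 of the 4 fits with 1 array left out. Tfrc, the transferrin receptor that brings iron into cells, stood at 6.07 and 6.43 in brown fat and 5.20 and 5.39 in white fat (difference 0.96, SE 0.26, limma adjusted p = 0.0383). The Tfrc call ended when any 1 array was left out, and it held in 8 of 10 other settings. Nim1k, a protein kinase related to the energy sensor AMPK, was well above background on all 4 arrays at low levels, at -0.53 and -1.10 against -2.73 and -2.17 (difference 1.64, SE 0.33, limma adjusted p = 0.0164). These 4 were the probes with a symbol that rose, against 50 that fell and 58 that were not called, of 112 tested. Of all probes 14.2% were higher and 18.6% lower. The 50 include 16 Y-linked probes and 10 of vomeronasal receptors, whose copies can share signal, so they are not independent readings.

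Genes of general cell functions had calls in both directions. The array repeats 15 of the named probes on 20 spots each. Of these 3 were higher (Gk, Gapdh and Tfrc), 3 lower and 9 not called, with a median difference of -0.44 beside -0.12 over all probes. Of all probes 14.2% were higher and 18.6% lower, so calls this few do not set the group apart. With no filter, and in the fit of all 6 tissue arrays, 1 of the 15 was called, higher in brown fat. Gusb, the lysosomal β-glucuronidase, was at 2.91 and 3.16 in brown fat and 4.06 and 4.68 in white fat (difference -1.34, SE 0.30, limma adjusted p = 0.0224). Hprt, which salvages purines, was at 5.98 and 6.08 against 7.09 and 7.20 (difference -1.11, SE 0.24, limma adjusted p = 0.0192). Tuba1b, an α-tubulin of microtubules, was at 7.92 and 8.25 against 9.05 and 9.09 (difference -0.99, SE 0.25, limma adjusted p = 0.0315).

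Other genes in common use as references were not called. Ppia, a peptidyl-prolyl isomerase, lay at 9.31 and 9.32 in brown fat and 9.24 and 9.20 in white fat, a difference of 0.10 (SE 0.24). B2m, the light chain of MHC class I, differed by -0.23 (SE 0.25), the transcription factor Tbp by -0.60 (SE 0.26) and Actb, β-actin, by -0.64 (SE 0.24, limma adjusted p = 0.0836). Brown fat was below white fat on both arrays for Actb and Tbp, while the B2m levels overlapped. Hsp90ab1, Ldhal6b, Rpl13a and Nono, named after their values were seen because they share the 20-spot layout, differed by 0.02, -0.21, -0.44 and -0.65. Tmlhe, an enzyme of carnitine synthesis, and G6pd2, a copy of the gene of glucose 6-phosphate dehydrogenase, differed by 0.76 (SE 0.28) and -0.73 (SE 0.30), again without a call.

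**Figure D2:**
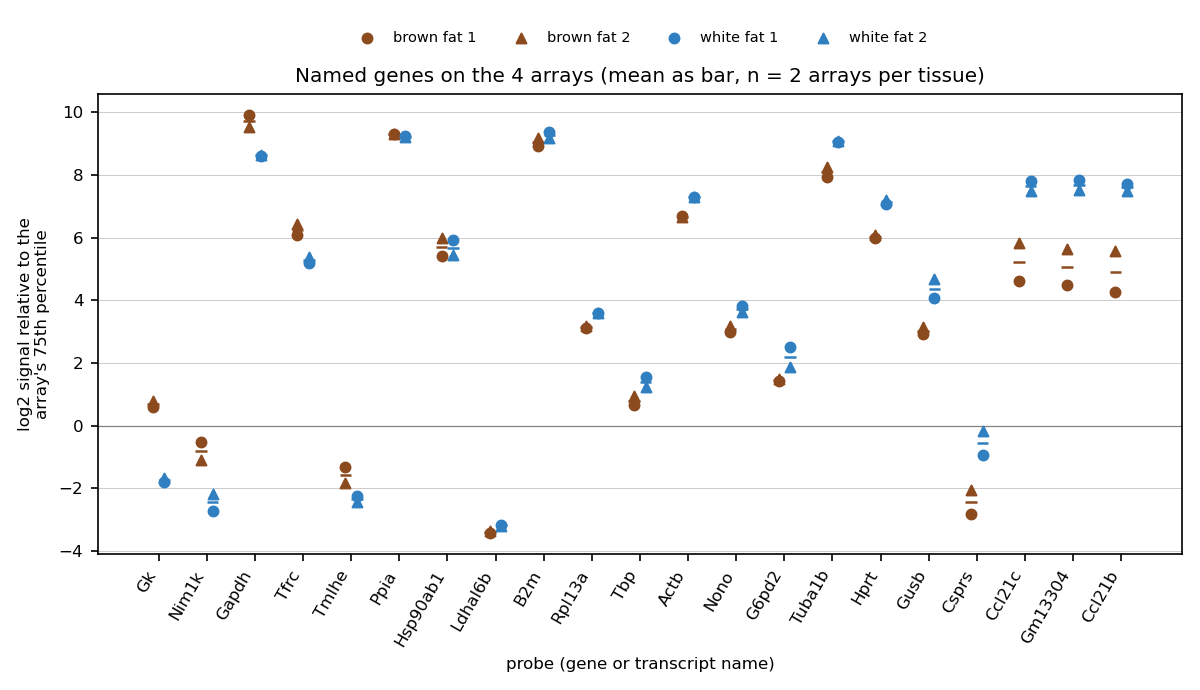
Level (log2 scale, 0 at the array's 75th percentile, vertical axis) of 21 probes with a gene symbol (horizontal axis, sorted by difference) on each brown fat and white fat array, with the mean of each tissue as a bar. Gk lies above 0 on both brown fat arrays and below it on both white fat arrays, and the Ccl21 probes lie higher on both white fat arrays than on either brown fat array.

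Chemokine genes of the Ccl21 type were lower in brown fat. Ccl21 is made by lymphatic endothelium and the stroma of lymph nodes and draws T cells and dendritic cells through the receptor Ccr7. Ccl21b was at 4.26 and 5.57 in brown fat and at 7.71 and 7.49 in white fat (difference -2.68, SE 0.45, limma adjusted p = 0.0105). The white fat arrays nearly coincided, whereas the brown fat arrays were more than 2-fold apart. Ccl21c was at 4.62 and 5.83 against 7.82 and 7.48 (difference -2.42, SE 0.43, limma adjusted p = 0.0123), and Gm13304, a gene model beside them, at 4.48 and 5.63 against 7.83 and 7.51 (difference -2.61, SE 0.42, limma adjusted p = 0.00959).

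The probes for Ccl21b, Ccl21c and Gm13304 followed each other on all 4 arrays, and as near-identical copies of 1 gene they can share signal, so their values are uncertain as to the copy. Gm13305, another model of the same gene cluster, was at 6.16 and 6.19 against 6.70 and 7.18 (difference -0.77, SE 0.27, limma adjusted p = 0.079) and was not called. Ccl28, a chemokine of mucosal epithelia, differed by -0.05. White fat can hold lymph nodes, and of the lymphoid markers Ccl21b and Ccl21c are the sole 2 of 7 measured by name, so the part of lymphoid tissue in this difference was not tested.

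Y-linked genes, among them multicopy families, made up another group that was lower in brown fat. Ssty1, Ssty2 and Sly belong to families that mouse spermatids express from many copies on the long arm of the Y chromosome, and most of the other Y-linked probes carry Gm model names. The group held the 22 symbol-bearing Y-linked probes other than the histone gene H2al2b. Rbm31y, at -0.27 on brown fat replicate 1 and not well above background on any other array, was not tested. Of the 21 tested, 16 were called lower (18.6% of all probes were) and 0 higher. Their median difference was -1.23 beside -0.12 over all probes. The differences of the 21 lay between -1.62 and -0.26. H2al2b, a Y-linked histone gene counted with the histones below, was at -0.995 and -1.94 in brown fat against -2.44 and -2.12 in white fat, higher on both brown fat arrays but not called (difference 0.81, SE 0.37, limma adjusted p = 0.144). Ssty1 was at 0.42 and 0.98 in brown fat against 1.94 and 2.42 in white fat (difference -1.48, SE 0.32, limma adjusted p = 0.0194), Ssty2 at 0.80 and 1.30 against 1.94 and 2.41 (difference -1.12, SE 0.31, limma adjusted p = 0.0381) and Sly at -0.23 and 0.29 against 0.95 and 1.19 (difference -1.04, SE 0.29, limma adjusted p = 0.039).

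The 21 probes, H2al2b not among them, lay lower on both brown fat arrays than on either white fat array, as did 40.5% of all probes tested. The arrays differed within tissues as well: the median level of the 21 was 0.44 and 0.98 in brown fat and 1.64 and 2.16 in white fat. This order follows slide positions 1 to 4, as does the share of probes well above background. White fat replicate 2 was the highest of the 4 arrays for 21 of them and brown fat replicate 1 the lowest for 20. The part of the slide position in the difference was not tested. Copies of these families are near identical, so that their probes can share signal and are not independent readings. The median of the group stayed below 0 in all 15 settings in which it was measured (from -1.52 to -0.93), yet the number called ranged from 0 to 19.

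Type 1 vomeronasal receptors, the pheromone receptors of sensory neurons in the nose, showed the same direction. All 12 Vmn1r probes were tested, and 10 were called lower (18.6% of all probes were) and 0 higher. Their median difference was -1.37 beside -0.12 over all probes, or -1.25 with the 1 probe that was dim in brown fat set at its bound. The number called lower ranged from 0 to 10 over 15 settings, with 1 when no filter was set and 0 in the fit of all 6 tissue arrays. Vmn1r241 was at -1.08 and -0.65 in brown fat and at 0.54 and 1.12 in white fat (difference -1.69, SE 0.31, limma adjusted p = 0.0133). Vmn1r93 was at -3.48 and -2.26 against -1.10 and -0.37 (difference -2.14, SE 0.47, limma adjusted p = 0.021) and 1 of its brown fat arrays was well above background. Over the 12 probes the median level was -1.41, -0.92, 0.04 and 0.75 at slide positions 1 to 4. Of the 12 probes, 9 were well above background on all 4 arrays. Levels of Vmn1r111, Vmn1r135 and Vmn1r257 were similar on each array (-0.58, -0.61 and -0.70 on brown fat replicate 1). Probes of this family may share signal, so the 12 cannot be counted as independent readings.

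Outside these groups 55 probes with a symbol were tested. Of these 1 was higher (14.2% of all probes were), 17 lower (18.6% were) and 37 not called. Their median difference was -0.41 beside -0.12 over all probes. Pramel37, of the PRAME-like family of leucine-rich repeat proteins known from germ cells, was at -4.12 and -2.99 in brown fat and at -1.40 and -0.56 in white fat (difference -2.57, SE 0.47, limma adjusted p = 0.0129). Its relative Pramel39 was at -3.44 and -2.51 against -0.95 and -0.25 (difference -2.37, SE 0.41, limma adjusted p = 0.0114). Both were well above background on 1 brown fat array and both white fat arrays. Obox2, an oocyte homeobox gene, was dim on both brown fat arrays with a level at least 1.52-fold below white fat (limma adjusted p = 0.0118), a call that normexp correction ended. Tcstv1, a gene of the earliest embryo, fell by 1.17 on the log2 scale (limma adjusted p = 0.0345).

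Pramel37 and Pramel39 are shown here because their probes moved together and the genes are close copies. The 250 bases before the start of each gene, on the minus strand of GRCm38.p6 as RefSeq gives them, lie at chr5:94070546-94070795 for Pramel37 and at chr5:94306797-94307046 for Pramel39, with capitals for the motif TATAAA:
Pramel37: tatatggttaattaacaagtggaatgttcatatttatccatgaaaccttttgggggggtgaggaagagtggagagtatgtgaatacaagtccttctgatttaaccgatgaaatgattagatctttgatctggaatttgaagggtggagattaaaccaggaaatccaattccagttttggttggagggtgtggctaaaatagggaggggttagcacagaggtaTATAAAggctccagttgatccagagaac
Pramel39: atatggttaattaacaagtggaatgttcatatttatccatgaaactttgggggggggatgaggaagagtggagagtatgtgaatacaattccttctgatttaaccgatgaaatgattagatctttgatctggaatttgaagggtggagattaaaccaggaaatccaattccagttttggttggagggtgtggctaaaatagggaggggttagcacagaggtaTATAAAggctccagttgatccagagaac
The windows were identical at 245 aligned bases, different at 4 and had 1 gap position. The motif began 28 bases before the start in both, and 12.4% of all 32851 RefSeq windows of this length hold it on either strand. The match describes these letters and does not show which copy a probe read.

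Among other named genes that fell, Aida, an axin-binding protein, was at 1.47 and 1.63 in brown fat and at 2.70 and 2.71 in white fat (difference -1.15, SE 0.24, limma adjusted p = 0.0175). H2ac19, 1 of 4 measured histone H2A genes, differed by -0.85 (SE 0.25, limma adjusted p = 0.0472), and the other 3 were not called. Gm4312 differed by -2.10 (SE 0.32, limma adjusted p = 0.00883) and Csprs, which 1 brown fat array did not mark as well above background, by -1.88 (SE 0.39, limma adjusted p = 0.0179), or -1.05 with normexp.

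Transcripts known by an accession of a sequence database, most of them mouse cDNA clones or expressed sequence tags, held larger differences. BC156060 was the most extreme of those dim in a tissue. It was at 2.23 and 2.95 in brown fat and at -5.66 and -5.25 in white fat, where neither array was well above background, so that brown fat exceeded white fat at least 112-fold (limma adjusted p = 0.00105). Such a bound sets the bright mean against the higher of the dim signal and the lowest signal marked as well above background. A probe dim on both arrays of a tissue entered the test only through the other tissue. The direction of each call given with a bound therefore followed from that selection, and its p-value is no separate support for the direction. With normexp, which raises dim signals, the fold was 27.2. For 17 of the 18 probes named with a bound the normexp fold was smaller than the bound, and 4 of the 18 calls were lost.

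Of the transcripts well above background on all 4 arrays, AK138758 was at 3.89 and 3.14 in brown fat and at -0.81 and -0.73 in white fat, which is 19.5-fold higher (difference 4.29, SE 0.32, limma adjusted p = 0.00262). DV062790 was at 8.35 and 7.74 against 4.33 and 4.30 (difference 3.73, SE 0.30, limma adjusted p = 0.00292). AK138450 was at 2.59 and 2.27 against -1.40 and -1.13 (difference 3.70, SE 0.26, limma adjusted p = 0.00242). In these 3 the white fat arrays lay closer together than the brown fat arrays, and the gap between tissues was several times the gap between replicates.

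AI507368, CB523987 and BB791535 followed, higher in brown fat by 3.69, 3.17 and 2.93 on the log2 scale (SE 0.28, 0.32 and 0.31). AI427689 and AI507332 were dim on both white fat arrays, and brown fat exceeded white fat at least 6.04-fold and 3.87-fold (limma adjusted p = 0.00503 and 0.0131).

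In the other direction AK196148 stood apart. It was at -1.64 and -0.82 in brown fat and at 3.54 and 3.32 in white fat, which is 25.3-fold lower in brown fat (difference -4.66, SE 0.34, limma adjusted p = 0.00252). The next 5 differed by less: AK038804 by -2.45, AK132892 by -2.41, ENSMUST00000126300 by -2.31, uc009vfl.1 by -2.19 and BY732216 by -2.17, all with a limma adjusted p between 0.00689 and 0.00823. DV650143, AK015763 and uc009swd.1 were dim on both brown fat arrays and at least 11.5-fold, 6.44-fold and 3.55-fold below white fat (limma adjusted p = 0.00334, 0.00549 and 0.00806). Of the 892 transcript accessions tested, 153 were higher (17.2%, beside 14.2% of all probes) and 156 lower (17.5%, beside 18.6%), with a median difference of -0.08 whose sign changed between settings (from -0.20 to 0.14).

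Within it the sources of the names differed. Probes with GenBank names had 146 calls higher (18.99%, beside 14.2% of all probes) and 115 lower (14.95%, beside 18.6%) of 769 tested. Those with Ensembl names had 5 higher (6.85%) and 24 lower (32.88%) of 73, and those with UCSC names 2 (4%) and 17 (34%) of 50. The median differences were -0.0017, -0.62 and -0.70. The sign of the GenBank median changed between settings (from -0.12 to 0.21), whereas the Ensembl and UCSC medians stayed below 0 in all 16.

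**Figure D3:**
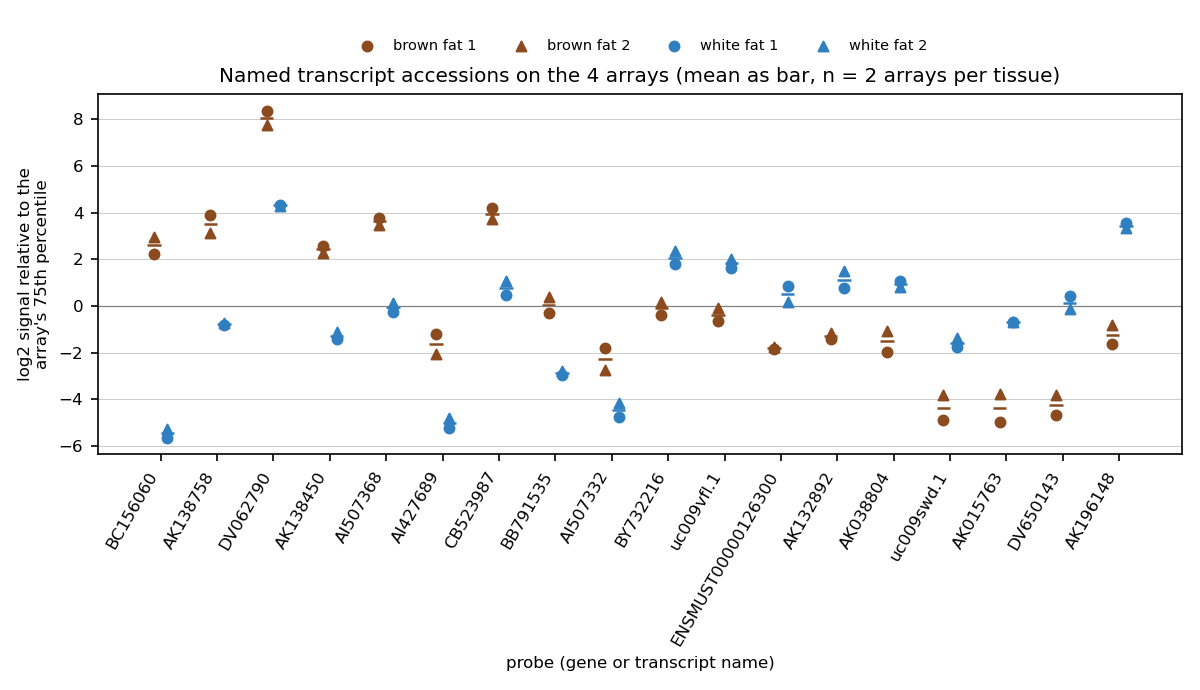
Level (log2 scale, 0 at the array's 75th percentile, vertical axis) of the 18 named transcript accessions (horizontal axis, sorted by difference) on the brown fat and white fat arrays, with the mean of each tissue as a bar. BC156060 lies above 2 on both brown fat arrays and below -5 on both white fat arrays, and no transcript has overlapping tissues.

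The lincRNA probes were the class with the largest share of calls in the direction of brown fat. Of 3216 tested, 640 were higher (19.9%, beside 14.2% of all probes) and 272 lower (8.46%, beside 18.6%), and their median difference was 0.14 beside -0.12, staying above 0 in all 16 settings. Thus 70.2% of lincRNA calls were higher in brown fat against 43.3% of all calls. The share for lincRNA exceeded that for all probes in 15 of 15 settings that gave calls, by 19.5 to 34.3 percentage points. The direction held for the 3 kinds of lincRNA name: 84.5% of calls were higher for the probes named after human lincRNAs (136 higher, 25 lower), 78.6% for the mouse loci (77 and 21) and 65.4% for the mouse lincRNA exons (427 and 226). Probes of 1 locus or of neighbouring exons can read 1 transcript, so these counts are not of independent RNAs.

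The lean of the lincRNA probes grew with their level. When all tested probes were divided by mean level into 4 bands of equal number, in the dimmest band 32.5% of lincRNA calls were higher in brown fat, and in the following bands 75.1%, 83.5% and 86.7%. Over all probes the same shares were 17.8%, 46.5%, 51.0% and 55.1%. In the brightest band 170 of 419 lincRNA probes were called higher, which is 40.6%, beside 19.9% of all probes of that band. Coding-block probes, the long run of design numbers that the deposited value table never lists, had 48.5% of their calls higher there. The lean within bands was not particular to lincRNA probes. Probes of ultraconserved elements, described below, had 30.4%, 85.2%, 82.1% and 76.9% of their calls higher from the dimmest to the brightest band. Those shares rest on 46, 27, 28 and 13 calls.

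In the dimmest band most calls of every class were lower in brown fat. For the coding block and the RefSeq accessions this was so in the other bands too. Over all its probes 2758 were called lower and 596 higher, with a median difference of -0.53. This is also where the filter acted, since the test took probes marked as well above background on both arrays of a tissue, and the white fat arrays held more such probes.

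**Figure D4:**
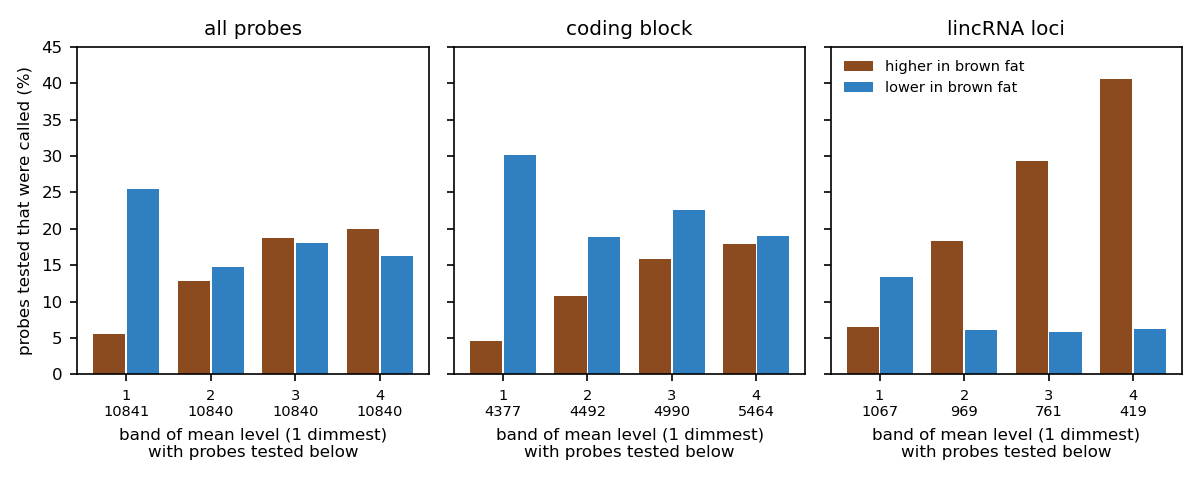
Share of tested probes called higher (brown bars) or lower (blue bars) in brown fat (vertical axis, percent) in 4 bands of the mean level over the 4 arrays (horizontal axis, with the number tested), for all probes, the coding block and lincRNA loci. In the brightest band 40.6% of lincRNA probes were higher and 6.21% lower, while in the coding block 17.9% were higher.

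The lincRNA locus with the largest difference was MM9LINCRNAEXON10825. Its + strand probe was at 6.04 and 5.07 in brown fat and at 0.28 and 0.17 in white fat, which is 40.2-fold higher (difference 5.33, SE 0.37, limma adjusted p = 0.00232). The - strand probe was at -1.44 and -1.90 in brown fat and was dim on both white fat arrays, which put brown fat at least 5.89-fold above white fat (limma adjusted p = 0.00242). Both strands of this locus thus moved the same way, though the direction of the - strand probe followed from its selection.

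At other loci 1 strand carried the difference. The - strand probe of humanlincRNA0324 was at 5.95 and 5.39 in brown fat and at 1.37 and 1.68 in white fat (difference 4.15, SE 0.30, limma adjusted p = 0.00242), and its + strand probe was dim on all 4 arrays and was not tested. The - strand probe of MM9LINCRNAEXON11793 was dim in white fat, which brown fat exceeded at least 7.43-fold (limma adjusted p = 0.00477), and its + strand probe differed by 0.74 (SE 0.37) without a call.

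Of those lower in brown fat, MM9LINCRNAEXON10942 moved on both strands: the + strand probe was at 0.99 and 1.51 against 5.77 and 5.07 (difference -4.17, SE 0.35, limma adjusted p = 0.00313), and the - strand probe was dim in brown fat and at least 6.80-fold lower (limma adjusted p = 0.00242). The - strand probe of MM9LINCRNAEXON11418 was at -1.39 and -1.40 against 1.26 and 1.46 (difference -2.75, SE 0.24, limma adjusted p = 0.00339), with its + strand probe at a difference of 0.58 (SE 0.44). The - strand probe of MM9LINCRNAEXON11414 was dim in brown fat and at least 6.66-fold lower (limma adjusted p = 0.00265). Its + strand probe differed by 0.07 (SE 0.25). For the - strand probes of MM9LINCRNAEXON10942 and MM9LINCRNAEXON11414, both dim in brown fat, the direction followed from the selection.

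The array carries both strands of 2664 lincRNA loci, and both probes were tested at 997. Both were called higher at 43 loci, both lower at 7, and in opposite directions at 21. At 435 loci 1 strand was called and at 491 neither, beside 19.9% higher and 8.46% lower among all lincRNA probes tested. The differences of the strands correlated at r = 0.12 over the 997 loci, a description across loci on the same 4 arrays. At MM9LINCRNAEXON10811, named after its values were seen as the widest opposite pair, the + strand probe differed by 2.50 and the - strand probe by -1.95.

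**Figure D5:**
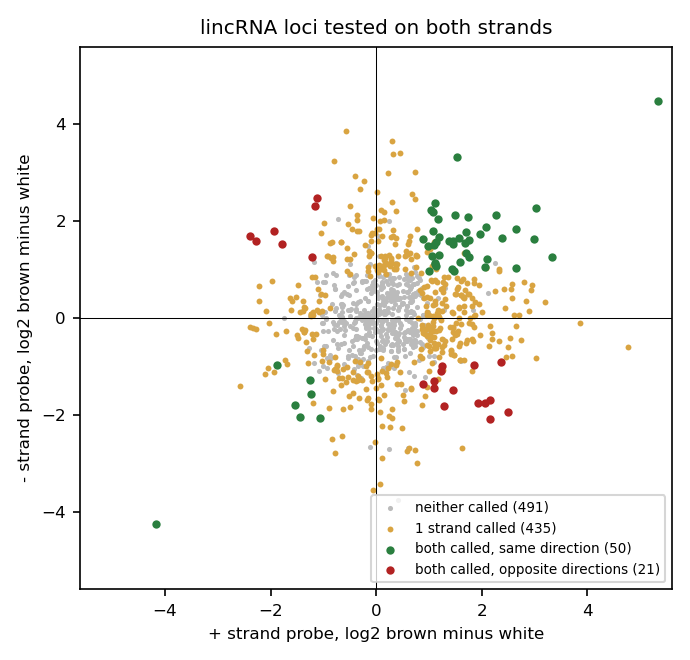
Difference between brown and white fat (log2, brown minus white) of the + strand probe (horizontal axis) and the - strand probe (vertical axis) at the 997 lincRNA loci tested on both strands, coloured by which strands were called. The 50 loci called in the same direction include the extreme points at both ends of the diagonal, and the 21 loci called in opposite directions have their own colour.

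Ultraconserved elements are stretches of genome kept nearly identical between human, mouse and rat, and some are transcribed. Their probes were dim: 395 of 961 were not well above background on any array, and 437 were tested, with 70 called higher (16.02%, beside 14.2% of all probes) and 44 lower (10.1%, beside 18.6%) in brown fat. Their median difference was 0.02 and changed sign between settings (from -0.07 to 0.28). The probe uc.417+ was at 5.69 and 5.70 in brown fat and at 2.16 and 2.82 in white fat (difference 3.21, SE 0.30, limma adjusted p = 0.00377). It was followed by uc.324- and uc.21-, with differences of 2.75 (SE 0.29) and 2.63 (SE 0.33). In the opposite direction uc.456+, uc.75- and uc.193- differed by -1.84, -1.60 and -1.59 (SE 0.40, 0.39 and 0.29).

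Ultraconserved probes dim in 1 tissue had small bounds. They entered the test only through the tissue where they were bright, so the direction of these calls followed from the selection. The probes uc.394-, uc.392- and uc.232+ were at least 3.74-fold, 2.50-fold and 2.33-fold above white fat in the brown fat arrays (limma adjusted p = 0.00493, 0.0306 and 0.00811). The probes uc.70+, uc.289+ and uc.333- were at least 3.11-fold, 2.50-fold and 2.09-fold lower (limma adjusted p = 0.00477, 0.00638 and 0.0296). With normexp the calls of uc.289+ and uc.333- were lost (limma adjusted p = 0.050 and 0.187), and uc.333- was called in 4 of 9 other settings. Both strands were tested at 106 elements, of which 3 were higher on both strands, 1 lower on both and 3 called in opposite directions. Among all ultraconserved probes tested 16.02% were higher and 10.1% lower.

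Design numbers hold most of the array, and the files do not pair them with genes. In the coding block 2456 of 19323 tested probes were higher (12.7%) and 4334 lower (22.4%) in brown fat (36.2% of calls higher, median -0.21). Among the other design numbers 2852 of 19374 were higher (14.7%) and 3216 lower (16.6%), with 47.0% of calls higher and a median of -0.08. The shares of the other design numbers lay near those of all probes, 14.2% higher and 18.6% lower. The coding-block median was above 0 with normexp, at 0.04. The widest differences on the array were here. ASMM9PARTA029387 was at 9.05 and 8.56 in brown fat and at -2.31 and -3.99 in white fat (difference 11.95, SE 0.56, limma adjusted p = 0.00105), and ASMM9PARTA009843 was at 8.03 and 8.07 against -1.59 and -2.10 (difference 9.89, SE 0.28, limma adjusted p = 0.000491). All 4 arrays marked both probes as well above background.

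Lower in brown fat were ASMM9PARTA030741, at -0.14 and 0.79 against 7.84 and 8.14 (difference -7.66, SE 0.37, limma adjusted p = 0.00105), and ASMM9PARTA028804, at -1.88 and -2.00 against 4.91 and 4.46 (difference -6.62, SE 0.27, limma adjusted p = 0.00105). Which genes they read is not given in the sources used here.

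The number of probes marked as well above background differed between the tissues. Of 59567 probes 31818 were well above background on all 4 arrays and 11077 on none. White fat alone had 4266 probes marked on both of its arrays and on neither brown fat array, and 2312 of them were called lower in brown fat. Brown fat alone had 178, and 167 of those were called higher. Such probes entered the test only through the tissue where they were bright, so the direction of these calls followed from the selection. The lincRNA class repeated this, with 342 probes marked in white fat alone and 20 in brown fat alone, and the negative control spots had more marks in white fat too. The part of array strength in these counts was not tested. BC156060 was among the probes marked in brown fat alone.

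The other arrays of the study give levels for these probes without a test. ASMM9PARTA029387 was at 4.80 and 3.77 on the arrays of white fat after CL, and in cultured brown adipocytes it was dim at day 0 (-4.93) and at -1.70, 0.74 and 3.05 on days 3, 5 and 7. AK138758 was at 0.56 and 0.89 after CL, and MM9LINCRNAEXON10825+ at 1.35 and 2.29. In culture AK138758 lay between -0.72 and -0.12 and MM9LINCRNAEXON10825+ between -0.12 and 0.37 on the 4 days, below both brown fat arrays.

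DV062790 and AK138450 were also below brown fat in culture, at 4.52 to 4.86 and at -1.29 to -0.31. BC156060 was not well above background on either CL array. Gk was at -1.11 and -1.10 after CL and between -0.94 and -0.27 in culture. The Ccl21b probe, at 6.16 and 7.10 after CL, lay between -0.85 and -0.50 in the cultured cells.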

How the data were processed

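RNA was measured on 1-colour Agilent arrays of an Arraystar mouse lncRNA design. The deposited scanner tables give each spot's background-subtracted intensity and, per the file headers, came from version 11.0.1.1 of Agilent Feature Extraction (the submitters' processing notes name 9.1). They also flag spots well above background. The authors' deposited value table gives log2 values for 18997 probes. Its columns followed their own array's log2 signal (r of 0.999 to 1.00) and had medians of 7.45, 7.42, 7.20 and 7.30 for brown fat 1 and 2 and white fat 1 and 2, while its normalization and centring are unknown.

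Values were log2 processed signal minus the array's 75th percentile over non-control probes, with spots of a probe averaged. Of 59709 probes 142 with an outlier flag on 1 of the 4 arrays were left out. Probes well above background on both arrays of a tissue were tested with limma 3.58.1 in R 4.3.3 (lmFit, eBayes, two-sided, 2 residual and 3.97 prior degrees of freedom) and Benjamini-Hochberg adjustment over 43361 probes. At an unadjusted p under 0.05 there were 19898. The script was tested on simulated data.

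Classes come from probe names, and the coding block is the longest run of design numbers with no probe in the value table. RefSeq accessions were matched to symbols through a RefSeq table of assembly GRCm38.p6, used for names alone because the design is annotated on mm9. Named were all called symbol-bearing probes, a panel of general genes, and per class the largest differences and bounds (6 and 3 per direction for transcript accessions, 3 and 3 for ultraconserved elements, 2 and 2 for lincRNA loci and design numbers). The arrays, lists and rules were chosen with earlier results of these data known. Alternatives covered background correction (normexp, offset 50, on the median spot signal), scaling, filters, the value table, the samples fitted, array weights, a variance trend, the replicate block and leaving out each array.

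Brown and white fat share replicate numbers 1 and 2 in the titles. The deviations of same-numbered arrays correlated at -0.024 over probes, with 2 pairs, and the numbers were not taken as a pairing.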

Additional observations from a re-analysis of the deposited data

Results flagged for a closer look

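Signal also came from arrays outside the comparison. Of the 25 named probes called higher in brown fat, 3 were well above background on both arrays of white fat after CL and lay at least 2-fold above the brighter array of white fat after saline on each. ASMM9PARTA029387 was at 4.80 and 3.77 after CL against -2.31 and -3.99 after saline, a gap of 6.08 between the lower treated and the higher saline array on the log2 scale. AK138758 was at 0.56 and 0.89 against -0.81 and -0.73, a gap of 1.29, and MM9LINCRNAEXON10825+ at 1.35 and 2.29 against 0.28 and 0.17, a gap of 1.07. All 3 stayed below both brown fat arrays, and the differences from the saline arrays were not tested here. Of the 71 named probes called lower in brown fat, 0 met the same condition. The saline white fat arrays entered both the calls and this condition. Probes called higher were low there from the start, so the counts of the 2 lists cannot be compared.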

How the results depend on the processing

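Counts are given as higher and lower in brown fat, with lincRNA probes second, beside 6175 and 8073 (640 and 272). With no filter on dim probes 5279 were called, 2681 and 2598 (271 and 66). In a fit of all 6 tissue arrays 4573 were called, 2434 and 2139 (252 and 61), and in the deposited value table, which tests fewer probes, 6709, of them 2478 lower (762 and 161). With normexp 145 lincRNA probes were lower, and 135 among probes well above background on all 4 arrays. The cause of these shifts was not tested. With the replicate block 13071 probes were called, 5343 and 7728 (552 and 275). Leaving out 1 array at a time gave 0 to 14286 calls, 0 to 5529 higher and 0 to 8757 lower (0 to 587 and 0 to 374 for lincRNA), with the lone array of a tissue assumed to vary like the pair of the other tissue. The low end was the fit without white fat replicate 1, and without white fat replicate 2 there were 203 and 344 (15 and 6). Quantile, median and other percentile scaling, array weights and a variance trend gave 13175 to 16146 calls. Probes marked in white fat alone numbered 7504, and in brown fat alone 1243, when 1 array sufficed.

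Of 1521 values of named probes under these alternatives 1159 kept their side of the threshold and their direction, 351 lost the call, 10 gained one and 1 reversed. The reversal was AF067063, dim on both brown fat arrays, at 0.064 with normexp (limma adjusted p = 0.827) in place of -1.72. Signal over background limits every probe of the dimmest band.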

Other observations

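Some named probes rested on 1 array and were chosen after their values were seen. AY761185, a gene of the α-defensin type, was at 3.73 on white fat replicate 1 and between -0.66 and -0.54 on the other 3 arrays. Gm6040 was at 0.91 on the same array, at -2.86 on white fat replicate 2 and not well above background in brown fat. Rbm31y, a Y-linked gene, was at -0.27 on brown fat replicate 1 and not well above background on the other 3 arrays. None of the 3 was called, and Rbm31y was not tested. Hmgcs1, an enzyme of cholesterol synthesis, was at 8.44 and 8.39 in brown fat and at 7.30 and 8.20 in white fat, without a call (limma adjusted p = 0.192).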
